A study of Schmidtea mediterranea with 5 samples.

Results

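Among 19639 transcripts with at least 1 CPM (mapped reads scaled to 1000000 in each library) in *mex3-1(RNAi)* or *control(RNAi)* planarians, 81 were at least 2-fold higher in *mex3-1(RNAi)* animals (0.412%), and 34 of these 81 were neither biased to the stem cell fraction nor on the study's sheet of known stem cell genes. These 34 transcripts are described here. They were chosen by their own values: a ratio of CPM + 1 of at least 2 in *mex3-1(RNAi)* over *control(RNAi)*, and a ratio of CPM + 1 below 2 in the X1 over the X2 fraction. Both ratios are therefore given as a description. The remaining ones were X1-biased, 42 off the known stem cell sheet and 5 on it, so the sheet itself removed no further transcript. All 34 were listed in the X1 table. No source used here pairs any of the 34 with a gene name, so they are called by their transcript identifiers and no function is given for them.

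Planarians replace their tissues from neoblasts, adult stem cells that are the dividing cells of the body and are lost after irradiation. Neoblast descendants stop dividing before they differentiate, and the best known of them form a lineage toward the epidermis marked by *prog* and *AGAT* genes. MEX3 proteins bind RNA through KH domains. In *C. elegans* MEX-3 holds back translation of specific mRNAs in the early embryo.

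The *mex3-1(RNAi)* animals, of the asexual clonal strain CIW4 of *Schmidtea mediterranea*, were fed bacteria expressing *mex3-1* double-stranded RNA in 1 feed and collected 12 days later. Whole irradiated animals of the same strain had received 60 Gy of gamma irradiation 7 days before collection. The *control(RNAi)* animals were fed a *C. elegans* sequence, *unc22*, on the same schedule as the *mex3-1(RNAi)* animals. The X2 and X1 fractions were cells sorted from dissociated animals, X1 holding cells in the cell cycle and X2 being associated with non-dividing stem cell progeny. Each condition had 1 poly(A) RNA-seq library, so no difference below has a replicate check and none was tested across animals. Each RNAi library pooled equal amounts of RNA from 3 preparations. The labels give 1 feed in the titles of the RNAi samples and 5 feeds in their growth protocol, and the study's methods give 1.

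The libraries held 60528509 to 69835694 mapped reads, so 3 reads, the most that a count of 0 allows, correspond to between 0.0430 and 0.0496 CPM. *mex3-1* itself was at 23.4 CPM in *mex3-1(RNAi)* and 144 CPM in *control(RNAi)* animals, and its homolog *mex3-2* at 68.0 CPM in *mex3-1(RNAi)* and 67.0 CPM in *control(RNAi)* animals. The stem cell gene *piwi-1* was at 452 CPM in *mex3-1(RNAi)*, 3.21 CPM in irradiated and 308 CPM in *control(RNAi)* animals, with 934 CPM in X2 and 3697 CPM in X1. The progeny gene *prog-2* was at 14.0, 0.788 and 485 CPM in the same 3 whole-animal libraries, and at 4477 CPM in X2 and 189 CPM in X1. The replication gene *PCNA* was at 114 CPM in *mex3-1(RNAi)*, 0.401 CPM in irradiated and 31.2 CPM in *control(RNAi)* animals. Stem cell and progeny markers thus differed between the libraries compared below, and their part in the levels of the 34 transcripts was not tested. Whole-animal RNA cannot tell a change in the number of cells of a type from a change in RNA per cell.

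Together the 34 transcripts took 0.841% of the mapped reads in *mex3-1(RNAi)*, 1.06% in irradiated and 0.379% in *control(RNAi)* animals, but 0.0323% in X2 and 0.0176% in X1. A single transcript, SmedASXL_018001, supplied 59.6% of this sum in *mex3-1(RNAi)*, 60.0% in irradiated and 60.1% in *control(RNAi)* animals. The median level over the 34 was 16.1 CPM in *mex3-1(RNAi)*, 55.8 CPM in irradiated and 5.19 CPM in *control(RNAi)* animals, 2.26 CPM in X2 and 1.43 CPM in X1. The irradiated library was thus the highest of the 5 in the median, as it was for 22 of the single transcripts, against 22.1% of the 19493 tested transcripts that the irradiated, X2 and X1 tables list. For the other 12 *mex3-1(RNAi)* was the highest, against 19.8%, and for none was it *control(RNAi)*, X2 or X1. The choice itself kept *control(RNAi)* from being the highest. It also favoured a high value in *mex3-1(RNAi)* and limited X1 against X2. The share left to the irradiated library was therefore not free of the choice. Nothing is read from the 22 beside the 22.1% or from the 12 beside the 19.8%. CPM is not divided by transcript length, so expression is compared here between libraries for 1 transcript and not between transcripts.

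**Figure D1:**
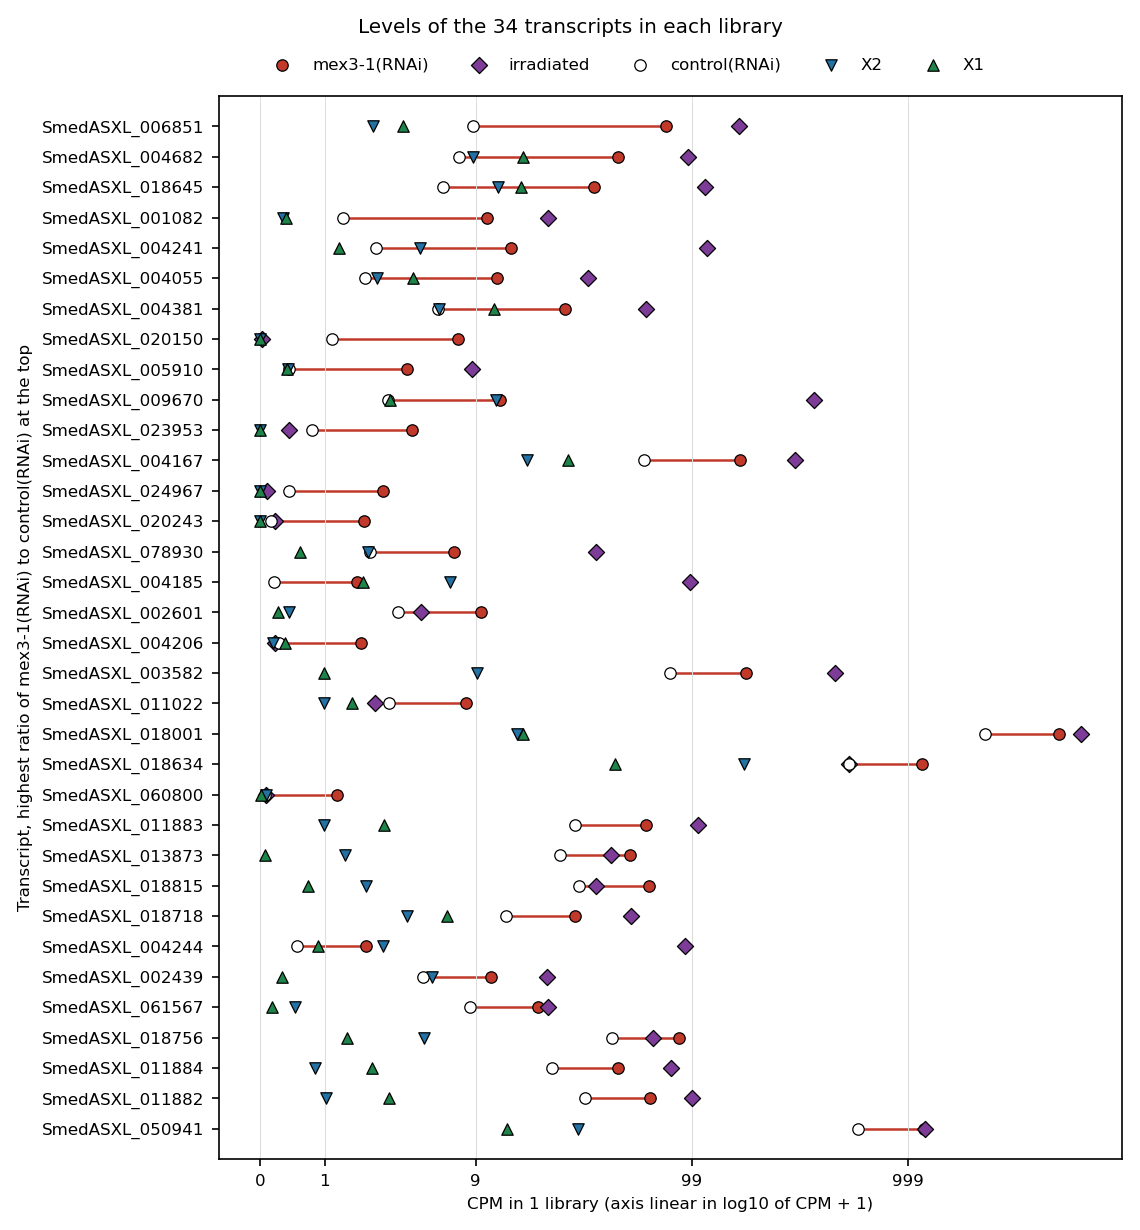
CPM of each of the 34 transcripts in the 5 libraries, on an axis linear in log10 of CPM + 1, ordered by the ratio of *mex3-1(RNAi)* to *control(RNAi)*; points are single libraries and the line joins the pair used to choose the transcripts. The irradiated point lies rightmost in 22 transcripts and the *mex3-1(RNAi)* point in 12.

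The ratio of *mex3-1(RNAi)* to *control(RNAi)* ran from 2.005 to 7.81. It was at least 4 in 6 transcripts, between 3 and 4 in 4, and below 2.5 in 20, of which 14 were below 2.2. In *control(RNAi)* 8 of the 34 were below 1 CPM, 9 between 1 and 5 CPM and 17 at 5 CPM or more. The 95% interval of the ratio (exact Clopper-Pearson, from the reads of both libraries) covers the error of counting reads alone, and it says nothing of variation between animals. It lay above 1 for all 34, and for 12 its lower end was below 2. The interval is of the same ratio that the choice required to reach 2, so its place above 1 is no test. The median log2 ratio was 1.27 over the 34 and 0.01 over all transcripts tested, a gap that the choice of the 34 fixes.

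**Figure D2:**
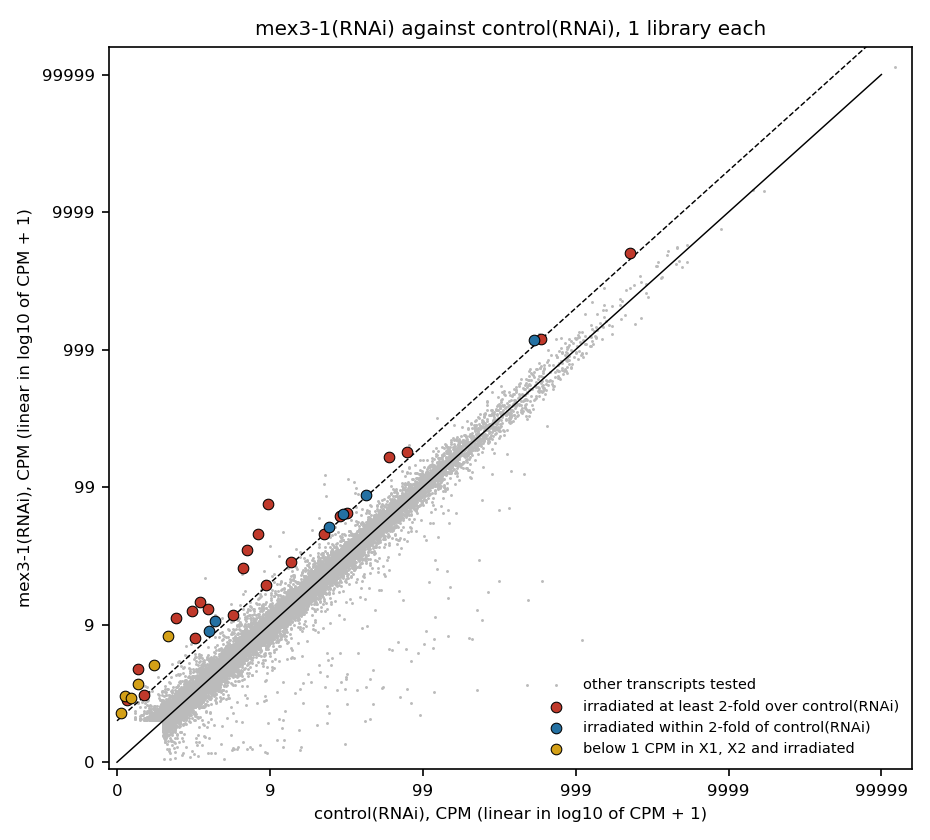
Levels of the tested transcripts in *mex3-1(RNAi)* (vertical) against *control(RNAi)* animals (horizontal), in CPM on axes linear in log10 of CPM + 1, 1 library each; the solid line marks equal values and the dashed line 2-fold. The 34 transcripts, coloured by their level in the irradiated library, lie on or above the dashed line, and 8 of them are below 1 CPM in *control(RNAi)*.

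The 34 transcripts fell into 3 sets by their level in the irradiated library, which did not enter the choice. In 22 the irradiated library was at least 2-fold above *control(RNAi)*, and in 6 it lay within 2-fold. The last 6 were below 1 CPM in the irradiated, X2 and X1 libraries alike. These were set apart first, whatever their ratio of irradiated to *control(RNAi)*. These sets were drawn after their values were seen. The last set is described by a level of the fractions that also entered the choice.

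The first set of 22 held the 6 transcripts with ratios of at least 4. SmedASXL_006851, the highest of all, was at 74.7 CPM in *mex3-1(RNAi)*, 165 CPM in irradiated and 8.70 CPM in *control(RNAi)* animals, with 2.36 CPM in X2 and 3.61 CPM in X1. Its ratio of *mex3-1(RNAi)* to *control(RNAi)* was 7.81 (7.22 to 8.44). SmedASXL_004682 was at 44.8 CPM in *mex3-1(RNAi)*, 94.6 CPM in irradiated and 7.37 CPM in *control(RNAi)* animals, a ratio of 5.46 (5.02 to 5.95) between the RNAi libraries. Unlike the first, it was higher in the sorted fractions than in *control(RNAi)*, at 8.71 CPM in X2 and 15.5 CPM in X1. SmedASXL_018645 showed the same order, with 34.1 CPM in *mex3-1(RNAi)*, 114 CPM in irradiated and 6.04 CPM in *control(RNAi)* animals, and with 11.7 CPM in X2 and 15.2 CPM in X1. Its ratio between the RNAi libraries was 4.99 (4.54 to 5.47).

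Others of this set had lower read counts behind a large ratio. SmedASXL_001082 was at 10.3 CPM in *mex3-1(RNAi)*, 20.5 CPM in irradiated and 1.42 CPM in *control(RNAi)* animals, and below 1 CPM in both fractions. SmedASXL_004055 was at 11.6 CPM, 32.0 CPM and 2.08 CPM in these 3 libraries. Both were near 10 CPM in *mex3-1(RNAi)*, with the irradiated library above it, an order shared by the next pair. SmedASXL_004381 was at 24.9 CPM in *mex3-1(RNAi)*, 60.5 CPM in irradiated and 5.68 CPM in *control(RNAi)* animals. SmedASXL_005910, with 240 reads in *mex3-1(RNAi)* and 25 in *control(RNAi)*, was at 3.80 CPM in *mex3-1(RNAi)*, 8.58 CPM in irradiated and 0.363 CPM in *control(RNAi)* animals.

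The transcripts of this set that took most reads had narrow counting intervals, with ratios of 2.005 to 2.79. SmedASXL_018001 was at 5014 CPM in *mex3-1(RNAi)*, 6335 CPM in irradiated and 2281 CPM in *control(RNAi)* animals, a ratio of 2.197 (2.18 to 2.21) between the RNAi libraries. By its share of the reads, which also depends on transcript length, it ranked 9 in *mex3-1(RNAi)*, 5 in irradiated and 27 in *control(RNAi)* animals. In the sorted cells it was at 14.6 CPM in X2 and 15.6 CPM in X1, at rank 6543 and rank 6070. It thus took a large share of the reads of each whole-animal library and a small share of those of sorted cells. SmedASXL_050941, at 1185 CPM in *mex3-1(RNAi)*, 1205 CPM in irradiated and 590 CPM in *control(RNAi)* animals, had the lowest ratio kept, 2.005 (1.98 to 2.03). It was at 28.8 CPM in X2 and 12.9 CPM in X1. SmedASXL_003582 was at 178 CPM in *mex3-1(RNAi)*, 458 CPM in irradiated and 78.1 CPM in *control(RNAi)* animals, with 9.14 CPM in X2 and 0.987 CPM in X1. SmedASXL_004167 was at 166 CPM, 299 CPM and 58.9 CPM in the same whole-animal libraries, and its ratio between the RNAi libraries was 2.79 (2.69 to 2.89). In these 4 each whole-animal library was above both fractions. Both fractions lay below both RNAi libraries for 52.1% of the tested transcripts, so nothing is read from this order.

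Another 4 transcripts of the 22, picked out after their values were seen, were low in both RNAi libraries and high in the irradiated one. They were SmedASXL_009670, SmedASXL_004241, SmedASXL_004185 and SmedASXL_004244. They lay between 1.84 and 13.6 CPM in *mex3-1(RNAi)*, between 92.1 and 367 CPM in irradiated and between 0.160 and 2.93 CPM in *control(RNAi)* animals. SmedASXL_009670 reached 367 CPM in irradiated animals, with 11.9 CPM in *mex3-1(RNAi)* and 2.93 CPM in *control(RNAi)* animals. SmedASXL_004185 was at 97.4 CPM in irradiated animals but at 1.84 CPM (116 reads) in *mex3-1(RNAi)* and 0.160 CPM (11 reads) in *control(RNAi)* animals. The ratio of irradiated to *control(RNAi)* was 33.8 to 93.6 in these 4, while that of *mex3-1(RNAi)* to irradiated was 0.0288 to 0.125. The ratio of *mex3-1(RNAi)* to *control(RNAi)* was 2.07 to 4.22, so in each of the 4 *mex3-1(RNAi)* lay between the other two whole-animal libraries. In the fractions they were at 2.73 to 11.4 CPM in X2 and 0.864 to 3.02 CPM in X1. SmedASXL_004241 stood on a list of irradiation-sensitive transcripts low in both fractions that the study drew up with further libraries. It was at 13.6 CPM in *mex3-1(RNAi)*, 116 CPM in irradiated and 2.47 CPM in *control(RNAi)* animals. Its level here was thus higher in irradiated than in *control(RNAi)* animals, opposite to what that list describes. Whether this *control(RNAi)* library is low for SmedASXL_004241 beside the study's other unirradiated libraries was not tested. Of the 49 tested transcripts on that list 42 were at least 2-fold lower in *mex3-1(RNAi)*, against 1.02% of all tested, and SmedASXL_004241 was the 1 that was 2-fold higher.

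The second set, the 6 transcripts outside the third set with an irradiated level within 2-fold of *control(RNAi)*, had *mex3-1(RNAi)* as the highest library in each. Its place above irradiated and *control(RNAi)* animals follows from the choice and from how the set is defined. SmedASXL_018634 was at 1164 CPM in *mex3-1(RNAi)*, 532 CPM in irradiated and 535 CPM in *control(RNAi)* animals. Its ratio of *mex3-1(RNAi)* to *control(RNAi)* was 2.18 (2.149 to 2.203), and that of irradiated to *control(RNAi)* was 0.996 (0.982 to 1.01), so the irradiated and control libraries did not differ beyond counting error. It was at 173 CPM in X2 and 43.3 CPM in X1, and took more reads than any other of the 34 in each fraction. SmedASXL_013873 was at 50.5 CPM in *mex3-1(RNAi)*, 41.2 CPM in irradiated and 23.5 CPM in *control(RNAi)* animals, SmedASXL_018756 was at 86.5, 65.0 and 41.5 CPM, and SmedASXL_018815 at 62.5, 34.9 and 29.2 CPM. In these 3 the irradiated library lay between the RNAi libraries. The other two, SmedASXL_002601 and SmedASXL_011022, fall outside the rule for named transcripts and are given to complete the set. SmedASXL_002601 was at 9.62 CPM in *mex3-1(RNAi)*, 4.60 CPM in irradiated and 3.35 CPM in *control(RNAi)* animals. SmedASXL_011022 was at 7.99 CPM, 2.41 CPM and 2.98 CPM in these libraries, with the irradiated level below the control level.

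In the third set of 6, set apart by levels below 1 CPM in the irradiated, X2 and X1 libraries, the most reads of each transcript came from *mex3-1(RNAi)*. The choice and the definition of this set already place *mex3-1(RNAi)* highest in CPM. Over all transcripts tested and listed in the fractions, 2.88% were below 1 CPM in the irradiated, X2 and X1 libraries. SmedASXL_020150 had 458 reads in *mex3-1(RNAi)* (7.25 CPM), 2 in irradiated (0.0286 CPM) and 80 in *control(RNAi)* animals (1.16 CPM), and 0 in X2 and X1. SmedASXL_023953 had 256 reads in *mex3-1(RNAi)*, 26 in irradiated and 52 in *control(RNAi)* animals, and 0 in both fractions. SmedASXL_024967, with 171, 6 and 25 reads, and SmedASXL_020243, with 128, 12 and 9 reads in these 3 libraries, also had 0 reads in X2 and X1. A count of 0 allows up to 0.0496 CPM in X2 and 0.0463 CPM in X1, so these 4 were not detectable in sorted cells at this depth. SmedASXL_004206 had 122 reads in *mex3-1(RNAi)*, 12 in irradiated and 16 in *control(RNAi)* animals, and 9 in X2 and 20 in X1. SmedASXL_060800 had 81 reads in *mex3-1(RNAi)*, 5 in irradiated and 4 in *control(RNAi)* animals, and 4 in X2 and 1 in X1. The pseudocount of 1 CPM pulls ratios of such low levels toward 1. The ratio of SmedASXL_060800 was 2.16 (1.91 to 2.29) on the CPM + 1 scale.

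Both thresholds had transcripts close on either side. The 3 lowest ratios of *mex3-1(RNAi)* to *control(RNAi)* kept were those of SmedASXL_050941, SmedASXL_011882 (2.01) and SmedASXL_011884 (2.02). The nearest left out were SmedASXL_006360 (1.99), SmedASXL_076758 (1.97) and SmedASXL_081337 (1.96). SmedASXL_006360 was at 1.71 CPM in *mex3-1(RNAi)*, 184 CPM in irradiated and 0.363 CPM in *control(RNAi)* animals. These whole-animal libraries had the same order as in the 4 transcripts low in both RNAi libraries. For the X1 over X2 ratio the highest kept were SmedASXL_011882 (1.95), SmedASXL_011883 (1.90) and SmedASXL_011884 (1.83). Left out at 2.18 was SmedASXL_017818, at 1296 CPM in *mex3-1(RNAi)*, 1790 CPM in irradiated and 570 CPM in *control(RNAi)* animals. It was at 31.3 CPM in X2 and 69.5 CPM in X1. SmedASXL_013689 (2.17) and SmedASXL_001746 (2.48) were also just outside. No transcript was lost to the minimum of 1 CPM, since a ratio of 2 on the CPM + 1 scale already needs 1 CPM in *mex3-1(RNAi)*.

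SmedASXL_011882, SmedASXL_011883 and SmedASXL_011884 have consecutive identifiers and had similar profiles. SmedASXL_011882 was at 63.3 CPM in *mex3-1(RNAi)*, 99.8 CPM in irradiated and 31.0 CPM in *control(RNAi)* animals, with 1.02 CPM in X2 and 2.95 CPM in X1. The reads of SmedASXL_011883 were 95.6% of those of SmedASXL_011882 in *mex3-1(RNAi)*, 106% in irradiated and 89.8% in *control(RNAi)* animals, and 95.2% in X2 and 93.2% in X1. Those of SmedASXL_011884 were 70.5%, 79.2% and 69.5% in the whole-animal libraries, and 79.0% in X2 and 78.5% in X1. The proportion to SmedASXL_011882 thus ran from 89.8% to 106% for SmedASXL_011883 and from 69.5% to 79.2% for SmedASXL_011884. The ratio of irradiated to *control(RNAi)* was 3.69 (3.52 to 3.88) for SmedASXL_011883 and 3.15 (3.00 to 3.30) for SmedASXL_011882, with counting intervals that did not overlap. Whether the 3 transcripts share reads was not tested, so they may not be 3 separate measurements.

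The comparison of irradiated animals with the sorted fractions used neither RNAi library, while X2 and X1 had entered the choice through their ratio. Irradiated levels were at least 2-fold above X2 for 27 of the 34 transcripts (79.4%), against 33.8% of the 19493 tested transcripts listed there, and at least 2-fold above X1 for 27, against 39.4%. None was 2-fold lower in irradiated animals than in X2, against 21.9%, or than in X1, against 21.7%. The median log2 ratio of irradiated to X2 was 3.51 over the 34 and 0.21 over all tested, and that of irradiated to X1 was 4.05 and 0.46. For transcripts at 5 CPM or more in each library the median log2 ratio was -0.31 for irradiated over X2 and -0.23 over X1. Relative to these shifts the medians of the 34 were 3.82 and 4.28, and those of all tested 0.52 and 0.68. The 7 that were not 2-fold above X2 were the third set of 6 and SmedASXL_011022, which was at 2.41 CPM in irradiated animals, 0.991 CPM in X2 and 1.68 CPM in X1. Of the 18482 listed transcripts that were not 2-fold higher in *mex3-1(RNAi)* and had an X1 over X2 ratio below 2, 34.5% were at least 2-fold above X2 and 40.9% above X1 in irradiated animals. The difference between the 34 and these transcripts was not tested. Irradiated animals were whole and the fractions were sorted cells, so irradiation and sorting cannot be told apart here. The median of the 34 was also higher in unirradiated *control(RNAi)* animals (5.19 CPM) than in X2 (2.26 CPM) or X1 (1.43 CPM).

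**Figure D3:**
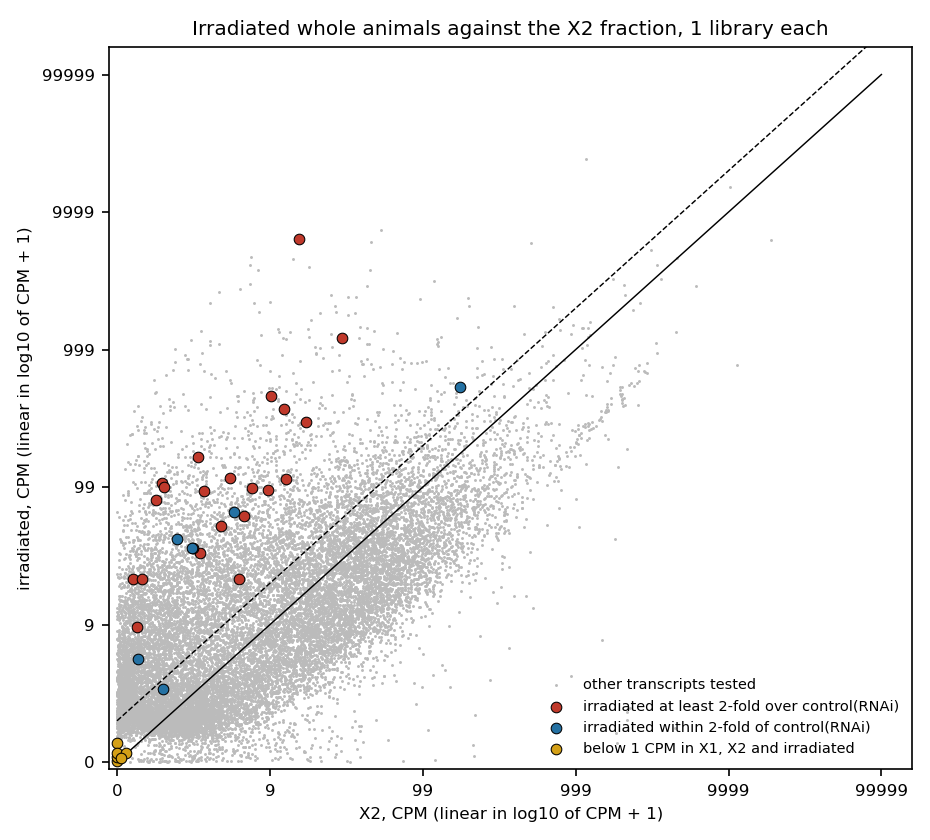
Levels of the tested transcripts in irradiated whole animals (vertical) against the X2 fraction (horizontal), in CPM on axes linear in log10 of CPM + 1, 1 library each, with the solid line at equal values and the dashed line at 2-fold. Of the 34 coloured transcripts 27 lie above the dashed line, and the 6 that were below 1 CPM in the irradiated, X2 and X1 libraries sit near the origin.

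Irradiated animals and *mex3-1(RNAi)* animals were each set against the same *control(RNAi)* library, so a low control value raises both ratios and nothing is read from their overlap. Irradiated levels were at least 2-fold above *control(RNAi)* for 22 of the 34 (64.7%), against 0.416% of the tested transcripts. They were at least 2-fold below it for 1, SmedASXL_020150, against 3.25%. The median log2 ratio of irradiated to *control(RNAi)* was 1.86 over the 34 and -0.14 over all tested. Set against each other, which leaves the control library out, *mex3-1(RNAi)* was at least 2-fold below irradiated for 11 of the 34, against 0.846% of the tested transcripts. It was 2-fold above irradiated for 8, against 3.78%, and these 8 held all 6 of the third set. The choice used the *mex3-1(RNAi)* value, so these shares are not free of it and nothing is read from them. The median log2 ratio of *mex3-1(RNAi)* to irradiated was -0.80 over the 34 and 0.13 over all tested. The irradiated library was sequenced with the fractions, and the run of the RNAi libraries is not given in the sources used here, so irradiation and library run cannot be told apart in these comparisons.

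The remaining raised transcripts had another order of libraries. Of the 42 X1-biased ones off the known stem cell sheet, irradiated levels were at least 2-fold above *control(RNAi)* for 2 and at least 2-fold below it for 32, with a median log2 ratio of -1.73. Their median level was 16.7 CPM in *mex3-1(RNAi)*, 0.422 CPM in irradiated and 5.62 CPM in *control(RNAi)* animals, and 9.10 CPM in X2 and 67.0 CPM in X1. The irradiated library was the highest for 1 of the 42 and *mex3-1(RNAi)* for none. Their X1 bias is what set them apart from the 34, and the difference between the groups in irradiated animals was not tested. None of the 34 was on the study's sheets of 5 known and 32 further epithelial progenitor transcripts. All 5 and all 32 were among the 19639 tested. On either sheet 0 were at least 2-fold higher in *mex3-1(RNAi)*, against 0.412% of all tested. The choice could therefore take none of them, and nothing is read from their absence. On those sheets 4 of the 5 and 29 of the 32 were at least 2-fold lower in *mex3-1(RNAi)*, against the same 1.02% of all tested.

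Between the fractions, X2 was at least 2-fold above X1 for 10 of the 34, where 12.3% of the tested transcripts were. Because the choice removed transcripts 2-fold above X2 in X1, nothing is read from that share. The widest gaps were those of SmedASXL_003582, with a ratio of X2 to X1 of 5.10 (4.40 to 5.86), SmedASXL_002439, at 5.30 CPM in X2 and 0.262 CPM in X1, and SmedASXL_018634, with a ratio of 3.93 (3.77 to 4.10). SmedASXL_078930 was at 2.16 CPM in X2 and 0.540 CPM in X1, with 6.96 CPM in *mex3-1(RNAi)*, 35.2 CPM in irradiated and 2.25 CPM in *control(RNAi)* animals. All 10 were at least 2-fold higher in irradiated animals than in X2. Of the 24 others 17 were. Both fractions lay below both RNAi libraries for 23 of the 34, where 52.1% of the tested transcripts did.

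How many transcripts the choice returns depended on the pseudocount. With 0.1 CPM added in place of 1 CPM, 58 transcripts were chosen (0.81% of all tested were 2-fold higher in *mex3-1(RNAi)*), and 31 of the 34 were among them. With 5 CPM 12 were chosen, all among the 34 (0.173% of all tested were 2-fold higher). Adding 5 CPM left the ratios of SmedASXL_018001 and SmedASXL_018634 nearly in place and brought that of SmedASXL_060800 from 2.16 to 1.24. Under every alternative run except a ratio of at least 3, 9 of the 34 were chosen each time. They were SmedASXL_006851, SmedASXL_018645, SmedASXL_001082, SmedASXL_004241, SmedASXL_004055, SmedASXL_009670, SmedASXL_003582, SmedASXL_018001 and SmedASXL_018634.

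**Figure D4:**
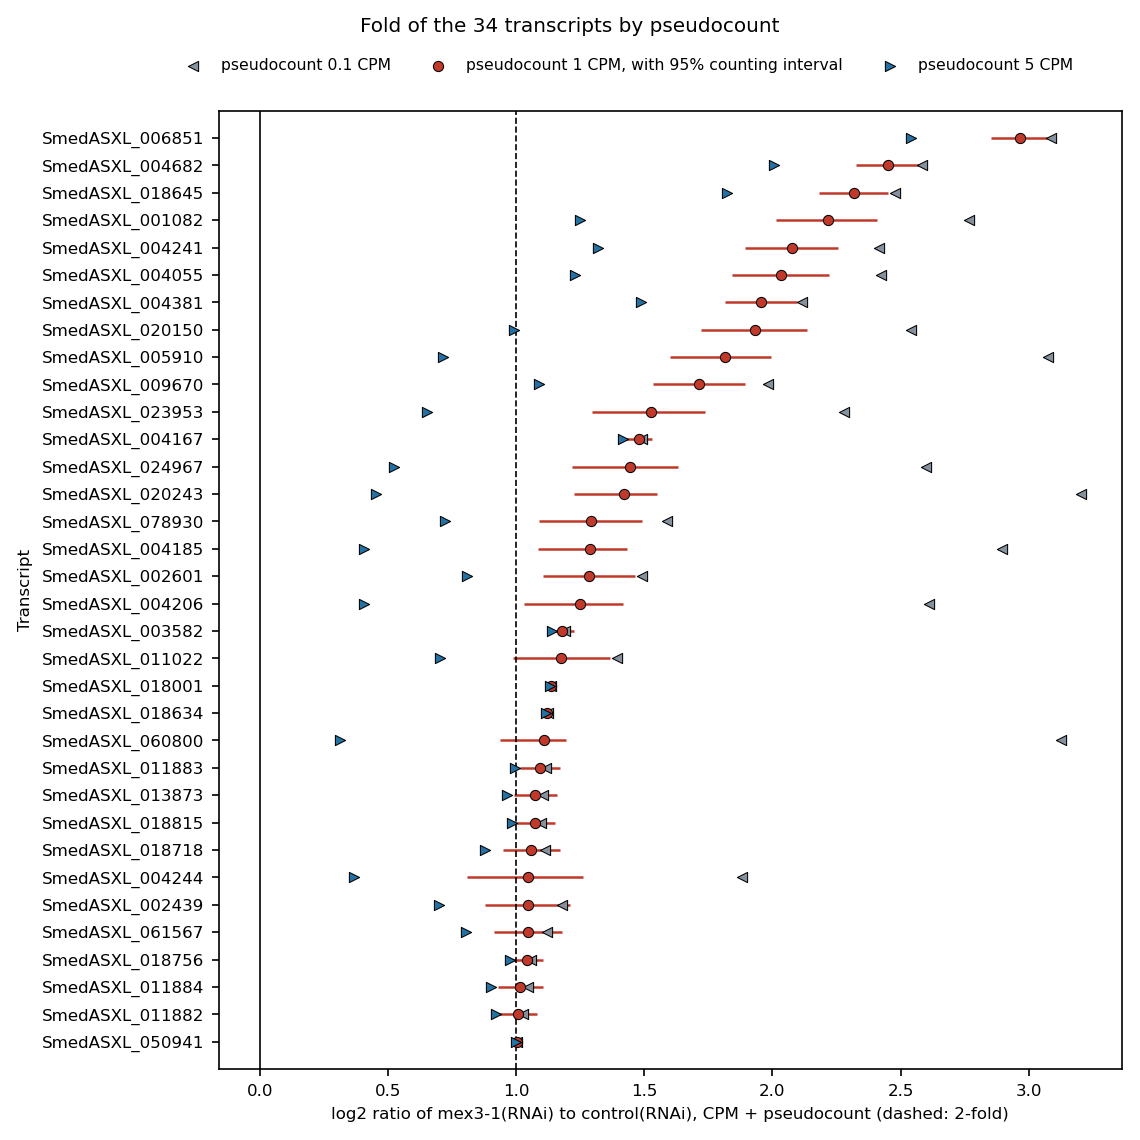
Log2 ratio of *mex3-1(RNAi)* to *control(RNAi)* for the 34 transcripts after adding 0.1, 1 or 5 CPM to each library; the bars on the 1 CPM points are 95% counting intervals and the dashed line marks 2-fold. The points for 5 CPM of 22 transcripts fall left of the dashed line, and those for 0.1 CPM lie at or right of it for all 34.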

How the data were processed

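Single-end reads were aligned by the authors to the SmedASXL transcriptome (Bowtie2 2.2.4, untrimmed). The deposited signal of a transcript is its CPM, mapped reads scaled to 1000000 in each library, with 1 added. Per the labels the libraries were made from poly(A)-selected RNA. Each deposited signal less 1 was divided by the smallest step of its library, and all values came out as whole reads within 0.01 read. A row that names no transcript held 2 to 32 reads a library, at most 4.94e-05%, and was left out. Another 10 deposited columns belong to libraries of other series and were not used. The authors' tables of X1- and X2-enriched transcripts hold their own log2 folds and FDR values and were not used either.

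Ratios are of CPM + 1, after the study's methods, and understate changes at low levels. The 95% intervals are exact Clopper-Pearson intervals of the reads of 1 library among the reads of both. Reads without molecular identifiers are not independent molecules, so intervals and the floor of 3 reads cover counting error only. With 1 library per condition no p-value was computed. Background counts included every transcript at 1 CPM or more in *mex3-1(RNAi)* or *control(RNAi)*, and those involving X1, X2 or irradiated animals took the 19493 of them listed there. A called transcript is one past a ratio of 2. The known stem cell, progenitor and other sheets came from the study's supplement. The transcripts described and the lists were chosen with earlier results of these data known.

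Named transcripts were those with the 15 highest ratios of *mex3-1(RNAi)* to *control(RNAi)*, the 5 highest levels in *mex3-1(RNAi)*, the 5 highest and 5 lowest ratios of X1 to X2 and of irradiated to *control(RNAi)*, that last ratio among those with at least 5 CPM in either, and the 3 nearest each threshold, 30 in all. The alternatives used a pseudocount of 0.1 or 5 CPM and a median log2 ratio of 0. Another rescaled CPM to the library total without that library's own 10 most abundant transcripts, which stayed in the choice. The rest used minimums of 5 CPM and none, ratios of 1.5 and 3, an interval above 2, and X1 over X2 below 1.5 and 3. The calculation was tested on simulated reads. Calculations ran in Python 3.11.15 (pandas 2.3.3, scipy 1.17.1, numpy 2.4.6) and figures in matplotlib 3.10.9.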

Additional observations from a re-analysis of the deposited data

How the results depend on the processing

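The choice gave 34 transcripts, of which 22 were higher in irradiated than *control(RNAi)* animals, 27 lower in X2 than irradiated animals and 10 higher in X2 than X1, each by a ratio of 2 or more. Adding 0.1 CPM gave 58 transcripts, with 42 lower in X2 than irradiated animals and 19 higher in X2 than X1. It raised the count of all transcripts at least 2-fold higher in *mex3-1(RNAi)* to 159. Adding 5 CPM gave 12 transcripts, with 11 higher in irradiated than *control(RNAi)* animals, 12 lower in X2 than irradiated animals and 3 higher in X2 than X1. A ratio of at least 1.5 gave 151, with 36, 108 and 26 in the same order, and 4 of the 151 were not listed in the X1 table, where the main choice had 0 such transcripts. A ratio of at least 3 gave 10, with 9, 9 and 2. A lower end of the counting interval of at least 2 gave 22, with 17 lower in X2 than irradiated animals and 6 higher in X2 than X1. Counts under the other alternatives were within 1.5 times these values. With the median log2 ratio set to 0, 32 of the 34 remained, and SmedASXL_011882 and SmedASXL_050941 were lost. With each library rescaled to its total without its own 10 most abundant transcripts, 31 remained and 4 others were gained. SmedASXL_011882, SmedASXL_011883 and SmedASXL_050941 were lost. The 10 most abundant transcripts were left out of the total only and could still be chosen. SmedASXL_018001 was among those 10 in *mex3-1(RNAi)* and irradiated but not in *control(RNAi)* animals. Among the 30 named transcripts the ratio of *mex3-1(RNAi)* to *control(RNAi)* moved beyond its counting interval for 18 with 0.1 CPM and 26 with 5 CPM. No pseudocount can reverse the direction of a ratio. The choice held all ratios at 2 or more, so their unchanged direction under either scaling is no check. For the 34 as fixed, the count higher in irradiated animals than in X2 was 30 with 0.1 CPM, 26 with 5 CPM and 28 with the median set to 0. The pseudocount acts by construction on low levels, and beyond that the cause of these differences was not tested.

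No paired analysis was possible because each condition had 1 library, and for the same reason leaving out a library gives no value. Depth limits the 6 transcripts below 1 CPM in the irradiated, X2 and X1 libraries, 4 of which had 0 reads in both fractions. Levels are per library and not per length, so a rank by CPM orders shares of reads and not expression.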
